A study of Danio rerio with 17 samples.

Results

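Claudins are the membrane proteins that form the strands of tight junctions, and the claudin gene family was followed here in cells sorted from the eyes and eye tumours of adult zebrafish. Members were all genes whose listed symbol starts with cldn, except cldnk and the cldnd genes, with a total of at least 50 counts over the 17 libraries. Of 31701 gene IDs in the count table, 41 had such a symbol. The rule left out 4 (cldnk and 3 cldnd genes), and 5 more fell under the minimum total, among them cldn10e with 22 counts and cldn26 and cldn18 with 11 each. The other 32 genes are the members. The nearest member above the minimum was cldnj with 89 counts, and the nearest gene below it was cldn10e. All 32 passed the low-count filter, with 23299 genes tested in all. Symbols are printed as the reference table lists them, and members that share a symbol (CLDN10, CLDN11) carry their Ensembl ID. A second gene listed as CLDN5 (ENSDARG00000014059) had 0 counts and is not a member.

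Polyadenylated RNA was sequenced from cells that a fluorescence sorter split by an RFP reporter driven by the sox10 promoter. The reporter marks cells of the neural crest lineage, which includes Schwann cells, and the study models malignant peripheral nerve sheath tumour (MPNST). Cancer_High (n = 4) and Cancer_Low (n = 4) are sox10-high and sox10-low cells of tumours from fish aged 7.5 to 10.4 months. PreC_High (n = 3) and PreC_Low (n = 3) are the same fractions of pre-cancerous tissue from fish aged 4.5 to 4.7 months. All these fish carry the tg(sox10:RFP) reporter and homozygous brca2 hg5 alleles. Control_Low (n = 3) is the sox10-low fraction of fish aged 4.6 to 5.0 months with the reporter and without brca2 hg5. Per the labels each Cancer or PreC High library shares its tissue with the Low library of the same number. Within a group each replicate has its own tissue code, and ages differ between some replicates of every group. The labels do not state whether replicates of the same age came from different fish. Part of the sample-to-sample spread behind the p-values may therefore not be spread between fish.

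Library totals ran from 58711787 to 87244522 counts. SOX10 stood at 748 to 1390 counts per 1000000 (CPM) in Cancer_High, 16 to 418 in Cancer_Low, 1330 to 1600 in PreC_High, 9.76 to 23.8 in PreC_Low and 11.1 to 13.4 in Control_Low. The library at 418 is Cancer_Low 4, whose tissue partner Cancer_High 4 had 1050 CPM. The brca2 transcript averaged 10.2 to 18 CPM in the 4 mutant groups and 6.53 CPM in Control_Low, and these counts do not show the allele. Cancer libraries differ from all others in age and in library index (10 to 17 against 1 to 9), so stage, age and index cannot be told apart. In bulk samples, fewer cells of a type and less RNA per cell cannot be told apart either.

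Claudins span the membrane and join those of the next cell, and which claudins an epithelium uses decides what passes between its cells. In mammals some members seal the gap (claudin-1, claudin-5, claudin-11 and claudin-19 among them), while others form ion channels (claudin-2, claudin-10 and claudin-15). Fish have extra members from gene duplication, many named by letter, and zebrafish cldnb is widely used as a marker of skin and lateral line epithelium. In mice, claudin-11 forms the junctions of oligodendrocyte myelin and claudin-19 those of Schwann cells. By these roles, 10 of the 32 members are sealing types, 8 are channel types, 7 are letter-named and 7 are other numbered claudins.

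The family had a different leading member in each sorted fraction. The summed claudin level was 373, 178, 340 and 117 CPM in Cancer_High, 1000, 1610, 518 and 429 in Cancer_Low, 887, 861 and 762 in PreC_High, 1730, 1440 and 871 in PreC_Low and 3760, 2540 and 2920 in Control_Low. Every Control_Low library lay above every other library. CLDN19 gave 72.0, 14.4, 65.7 and 26.1% of the claudin counts of Cancer_High and 73.1, 76.7 and 73.7% of those of PreC_High. CLDN12 led the other 2 Cancer_High libraries, with 59.4% in Cancer_High 2 and 56.0% in Cancer_High 4. In the sox10-low libraries cldnb led with 20.3 to 36.1% in Cancer_Low, 36.7 to 40.7% in PreC_Low and 33.2 to 39.9% in Control_Low, except in Cancer_Low 4, where cldni had 22.8%. These are shares of counts and are not adjusted for gene length.

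**Figure D1:**
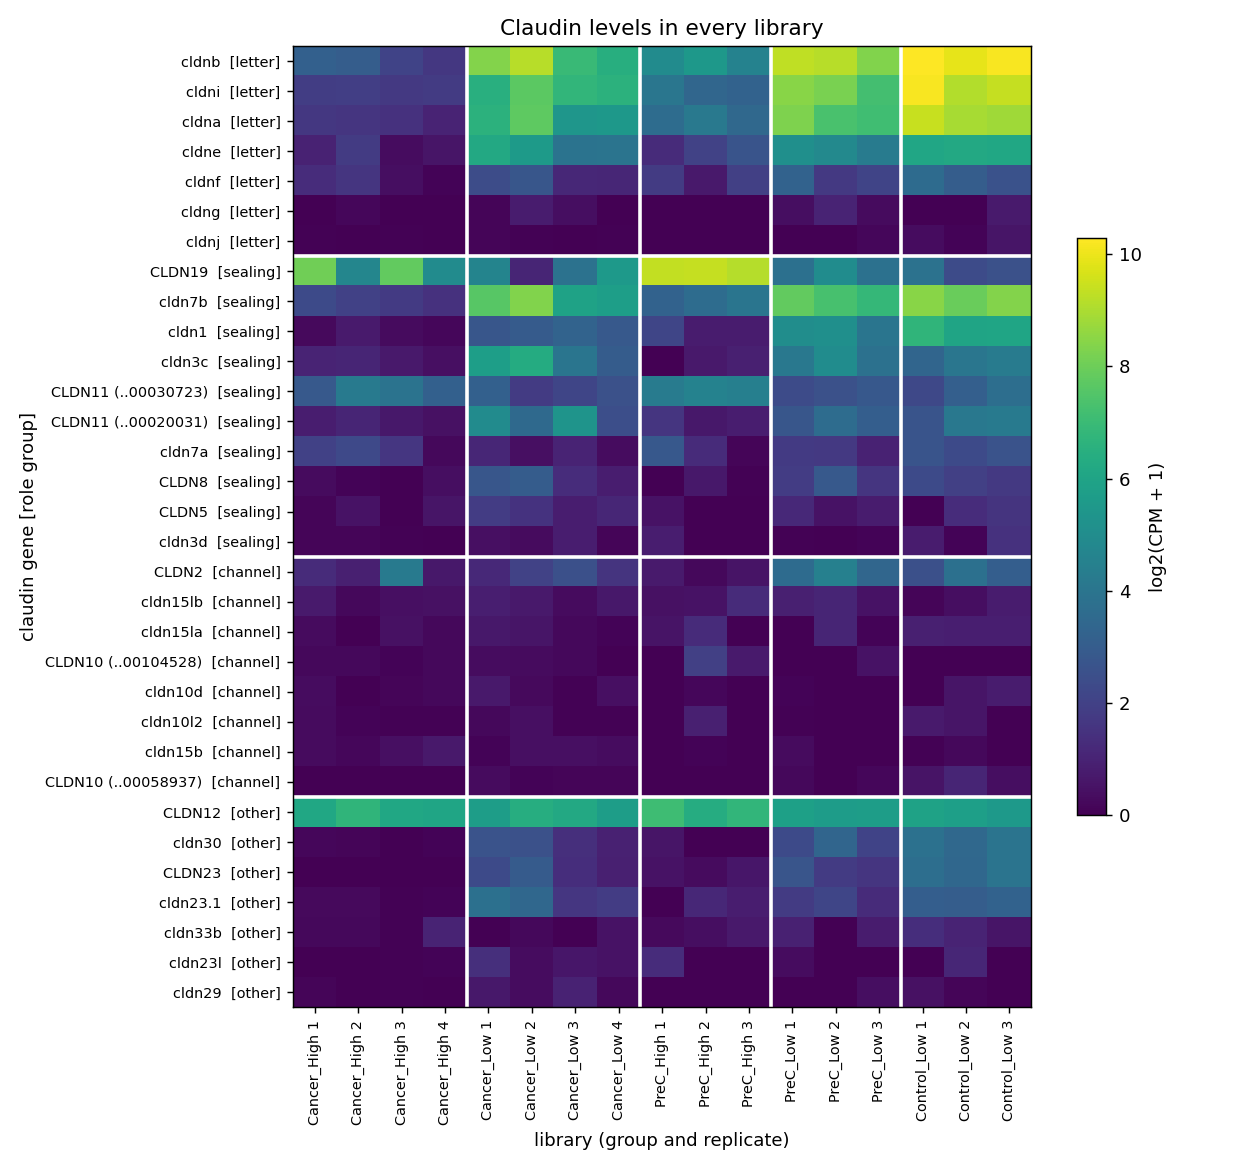
Level of each of the 32 claudins (rows, grouped as letter-named, sealing, channel and other) in each of the 17 libraries (columns), as log2(CPM + 1). White lines separate groups; the letter-named claudins cldnb, cldni and cldna are bright in the sox10-low columns, and CLDN19 is bright in the 3 PreC_High columns and in Cancer_High 1 and 3.

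Of the claudins with the most counts in the sox10-low fraction, cldnb, cldni and cldna were called lower in tumours than in controls, and cldn7b was not (log2 fold change -0.96, edgeR adjusted p 0.15). By limma voom, and by edgeR without Cancer_Low 2, cldn7b was called lower as well. The letter-named cldnb, which marks surface epithelia, had 334, 580, 125 and 86.9 CPM in Cancer_Low, 634, 585 and 322 in PreC_Low and 1250, 953 and 1170 in Control_Low. Its paralog cldni had 89.8, 209, 107 and 97.7 CPM in Cancer_Low, 352, 293 and 146 in PreC_Low and 1160, 556 and 676 in Control_Low. For both genes the 3 Control_Low libraries were the highest of all 17.

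Before tumours, no claudin passed the test: 0 of 32 were higher and 0 were lower in PreC_Low than in Control_Low, where 0.777% of all genes tested were called higher and 0.296% lower (edgeR quasi-likelihood test, Benjamini-Hochberg adjusted p under 0.05). The log2 fold change was negative for 24 of the 32, with a median of -1.01, against 0.09 over all genes. An unadjusted p under 0.05 was reached by 6 members, and the share of all genes that reached it is not given here. DESeq2 called 1 member, cldni, lower, and 557 of 23299 genes lower. The closest member, cldni, had a log2 fold change of -1.60 ± 0.40 (SE) with an adjusted p of 0.0622. Its groups did not overlap, and leaving out Cancer_Low 2 or Cancer_Low 4, which add only to the estimate of the spread, made it the only call. A fit to these 2 groups alone called 4 of 25 members tested lower (cldn1, cldne, cldni and cldna), and 414 of 21081 genes.

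In tumours, 0 claudins were higher and 6 were lower in Cancer_Low than in Control_Low, where 17.2% of all genes were called higher and 15.5% lower. The 6 are 3 letter-named genes, 2 sealing genes and CLDN23, and the median over the 32 was -0.92, against 0.16 over all genes. The largest fall was that of cldn1, whose mouse ortholog is needed for the water barrier of the skin. It had 5.76, 6.75, 8.69 and 6.26 CPM in Cancer_Low, 32.4, 34.0 and 15 in PreC_Low and 104, 62.8 and 64.5 in Control_Low. The groups are fully stepped, with Cancer_Low lowest. For Cancer_Low against Control_Low the log2 fold change of cldn1 was -3.49 ± 0.58 (SE, edgeR adjusted p 0.00028), that of cldni -2.66 ± 0.37 (6.23e-05), that of cldna -2.45 ± 0.49 (0.00115) and that of cldnb -2.0 ± 0.55 (0.0105). These 4 calls held without any 1 library, although without Cancer_Low 2 the fold change of cldnb became -2.62 and that of cldna -3.16. CLDN23 (-1.91 ± 0.68, adjusted p 0.0412) and cldn7a (-2.78 ± 1.02, 0.0463) are less certain. The second of these, a paralog of cldn7b, had 1.16, 0.354, 1.01 and 0.277 CPM in Cancer_Low and 5.36, 3.94 and 5.19 CPM in Control_Low, with no overlap. Leaving out any 1 of 6 libraries (3 Cancer_Low and all 3 Control_Low) ended the call of CLDN23, with an adjusted p of up to 0.115, and its fold change was -2.54 without Cancer_Low 2. Leaving out any 1 of 14 libraries ended the call of cldn7a, with an adjusted p of up to 0.105.

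Between tumour and pre-cancerous sox10-low cells few claudins were called: 0 of 32 were higher and 2 were lower in Cancer_Low than in PreC_Low, where 7.95% of all genes were called higher and 11.1% lower. The median log2 fold change was 0.02, against 0.05 over all genes. The 2 genes were cldn1 (-1.98 ± 0.56, edgeR adjusted p 0.0189) and cldni (-1.07 ± 0.36, 0.0485), and the groups overlapped for cldni and not for cldn1. Leaving out Cancer_Low 1, PreC_Low 1 or PreC_Low 2 ended the call of cldn1, with an adjusted p of up to 0.0709. Any 1 of 13 libraries ended that of cldni, with an adjusted p of up to 0.214. CLDN2, the water and cation channel of leaky epithelia in mammals, had 1.29, 3.06, 4.71 and 1.89 CPM in Cancer_Low and 11, 21.6 and 9.55 CPM in PreC_Low. The groups did not overlap, but the adjusted p of 0.0895 (log2 fold change -2.36 ± 0.94) missed the threshold in edgeR. CLDN2 was called lower there by DESeq2 (0.0369), by limma voom (0.0128), in the fit to only these groups (0.0176) and without Cancer_High 3 (0.0107).

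Not every claudin of the sox10-low fraction was low in tumours. The sealing claudin cldn3c had 54.1, 78.4, 14.8 and 6.94 CPM in Cancer_Low, 16.5, 31.2 and 13.5 in PreC_Low and 9.13, 15.4 and 18.5 in Control_Low. Cancer_Low 1 and 2 lay above every other library, and Cancer_Low 4 lay below all Control_Low libraries. The difference of Cancer_Low from Control_Low was 1.43 ± 0.91 with an adjusted p of 0.244. CLDN11 (ENSDARG00000020031) had 30.3, 10.5, 38.6 and 4.53 CPM in Cancer_Low, 5.71, 11.5 and 7.51 in PreC_Low and 5.36, 16.2 and 17.4 in Control_Low, and the groups overlapped.

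**Figure D2:**
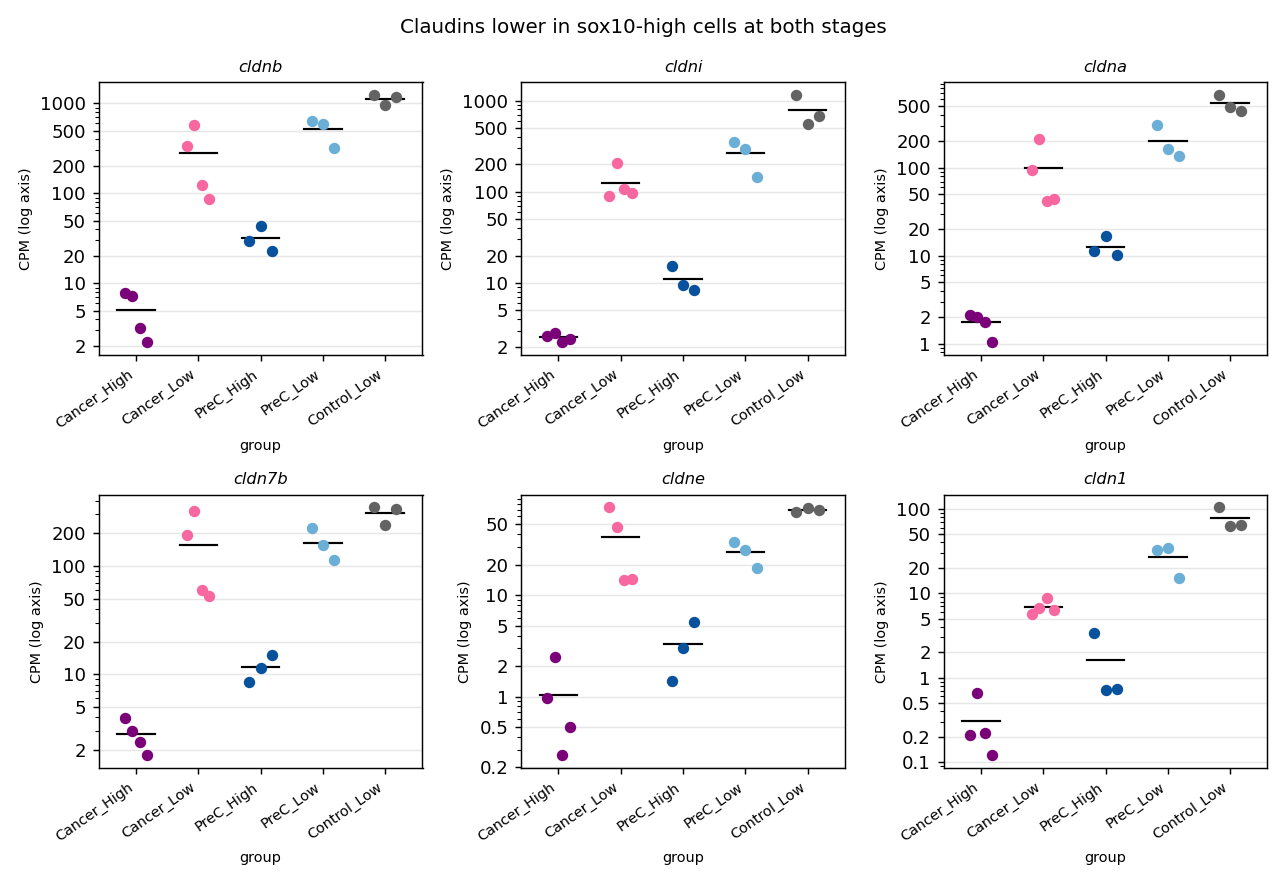
CPM (log axis) of 6 claudins in each library by group; each point is a library and the line is the group mean. Both sox10-high groups lie below every sox10-low library for cldnb, cldni, cldna, cldn7b, cldne and cldn1, and Cancer_High lies below PreC_High for the first 4 and for cldn1.

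Sox10-high cells had far less of the same claudins, at both stages. In pre-cancerous tissue 3 claudins were higher and 14 were lower in PreC_High than in PreC_Low, where 9.28% of all genes were called higher and 22% lower. The median over the 32 was -2.68, against -0.15 over all genes, and it was -2.29 with the genes at 0 counts in PreC_High set at their bound. In tumours 2 were higher and 13 were lower in Cancer_High than in Cancer_Low, where 10.5% of all genes were called higher and 17.9% lower. That median was -2.78, against 0.07 over all genes. By role, 5 of 7 letter-named, 5 of 10 sealing, 2 of 8 channel and 2 of 7 other members fell in PreC_High. In Cancer_High it was 4 of 7, 5 of 10, 1 of 8 and 3 of 7.

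For cldnb the levels were 7.84, 7.24, 3.22 and 2.21 CPM in Cancer_High and 29.9, 43.9 and 22.9 CPM in PreC_High, against 86.9 CPM or more in every sox10-low library. The log2 fold change was -5.78 ± 0.62 in tumours (54.9-fold lower, edgeR adjusted p 5.87e-06) and -4.0 ± 0.66 in pre-cancerous tissue (16-fold lower, 0.000288). For cldni the levels were 2.64, 2.8, 2.23 and 2.44 CPM in Cancer_High and 15.5, 9.45 and 8.45 CPM in PreC_High. Its log2 fold change was -5.64 ± 0.41 in Cancer_High (edgeR adjusted p 5.11e-07) and -4.57 ± 0.45 in PreC_High (6.89e-06), the smallest adjusted p of any claudin in each comparison. No sox10-high library reached the level of any sox10-low library for either gene.

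The next letter-named member, cldna, had 2.14, 2.04, 1.79 and 1.04 CPM in Cancer_High, 95.7, 215, 41.8 and 44.2 in Cancer_Low, 11.3, 16.7 and 10.2 in PreC_High, 311, 162 and 138 in PreC_Low and 678, 497 and 448 in Control_Low. Its log2 fold change was -5.82 ± 0.55 in Cancer_High against Cancer_Low (edgeR adjusted p 2.31e-06) and -4.0 ± 0.58 in PreC_High against PreC_Low (0.000105). The sealing claudin cldn7b, whose mammalian ortholog lines the sides of epithelial cells and binds EpCAM, had 3.95, 3.00, 2.38 and 1.78 CPM in Cancer_High, 193, 326, 60.2 and 53.3 in Cancer_Low, 8.37, 11.3 and 15 in PreC_High, 226, 156 and 113 in PreC_Low and 348, 242 and 334 in Control_Low. The log2 fold change of cldn7b was -5.83 ± 0.57 in tumours (adjusted p 3.07e-06) and -3.84 ± 0.60 before them (0.000191). For cldna and cldn7b the fractions did not overlap at either stage.

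Members with lower counts fell as well. The sealing genes cldn1 (-4.49 ± 0.61 in tumours, -4.06 ± 0.67 before) and cldn3c (-5.63 ± 0.99 and -5.34 ± 1.13) fell at both stages (edgeR adjusted p up to 0.00208), as did cldne (-5.16 ± 0.73 and -3.02 ± 0.76, up to 0.00662) and CLDN11 (ENSDARG00000020031; -4.90 ± 0.71 and -2.87 ± 0.75, up to 0.00787). So did cldn30 (-5.31 ± 1.26 and -5.04 ± 1.41, up to 0.0123) and CLDN8, a distal kidney tubule claudin in mammals (-4.58 ± 1.21 and -4.07 ± 1.36, up to 0.0307). CLDN8 lost its call in pre-cancerous tissue without PreC_High 1, PreC_High 3 or PreC_Low 2, with an adjusted p of up to 0.0939, and its fold change was -3.48 without PreC_High 1, -7.02 without PreC_High 2 (where few counts are left) and -3.37 without PreC_Low 2. The other calls named in this paragraph held without any 1 library, while some sizes moved. In tumours cldne became -6.01 and cldn1 -5.21 without Cancer_High 2, and cldnb became -5.15, cldna -5.11, cldn7b -5.20 and cldn3c -5.02 without Cancer_Low 2. In pre-cancerous tissue cldn1 became -5.23 and CLDN11 (ENSDARG00000020031) -3.59 without PreC_High 1, cldn3c became -4.75 without PreC_High 1 and -6.03 without PreC_High 3, and cldn30 became -4.44 without PreC_Low 2. The only counts of cldn30 in PreC_High came from PreC_High 1. Fitted to the 2 fractions of that stage alone, cldn30 (adjusted p 0.0681) and CLDN8 (0.0949) were not called in pre-cancerous tissue.

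CLDN23 was almost absent from sox10-high tumour cells. It had 1, 0, 1 and 0 counts in Cancer_High and 313, 471, 137 and 71 in Cancer_Low, while PreC_High had 38, 18 and 40 and PreC_Low 420, 168 and 171. Pooled over libraries, Cancer_High was 426-fold lower than Cancer_Low, with a 95% interval of 118 to 3530 that covers counting error only. PreC_High was lower than PreC_Low as well (log2 fold change -3.05 ± 0.79, edgeR adjusted p 0.00803). Its relative cldn23.1 had 0.195, 0.194, 0.0294 and 0.0603 CPM in Cancer_High and 12.9, 9.97, 2.1 and 2.59 in Cancer_Low, a log2 fold change of -5.82 ± 1.15 (adjusted p 0.00131). In pre-cancerous tissue the groups did not overlap either, and cldn23.1 was not called by edgeR (-1.87 ± 1.1, adjusted p 0.208) but was called lower by limma voom (0.0346).

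**Figure D3:**
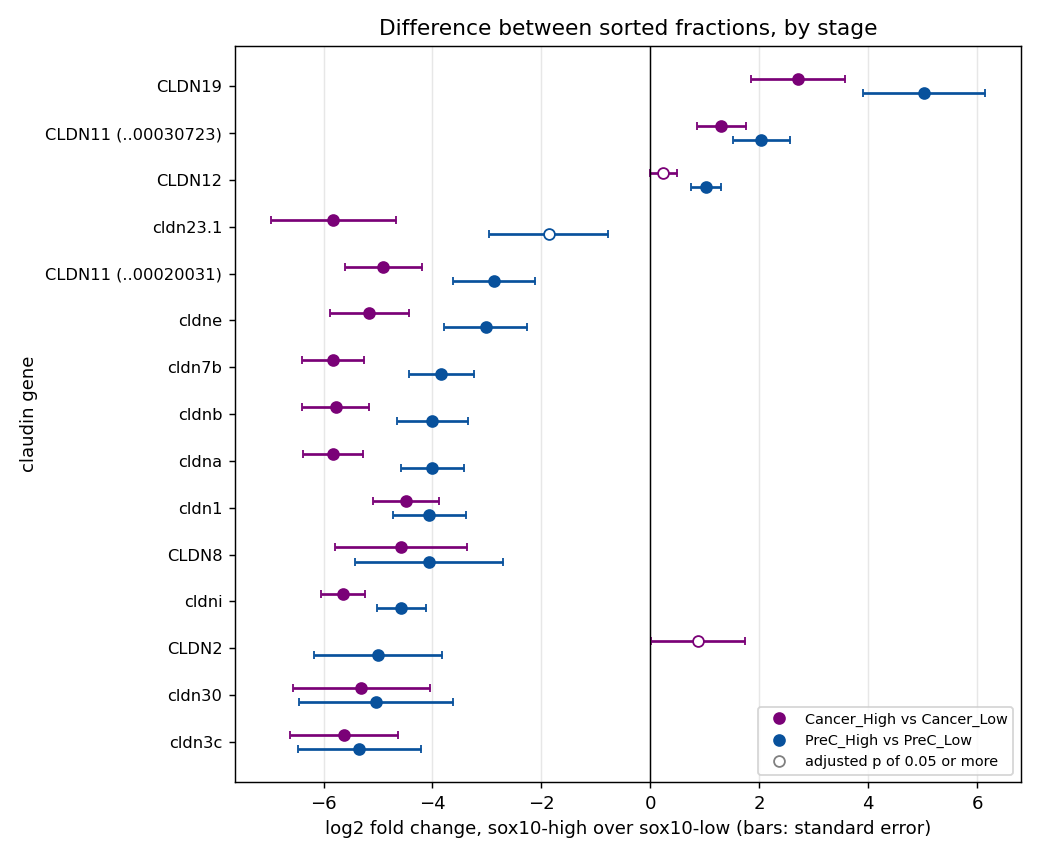
log2 fold change of sox10-high over sox10-low cells for the 15 claudins called at 1 stage or both. Bars are standard errors derived from the F-test. Genes at 0 to 3 counts in a whole group are left out. Filled points have an adjusted p under 0.05. CLDN19, CLDN11 (ENSDARG00000030723) and CLDN12 lie right of 0 at both stages, with CLDN12 not called in tumours (0.24). CLDN2 lies far left of 0 before tumours only, at -5.0.

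CLDN19 differed in the other direction. It had 268, 25.6, 223 and 30.5 CPM in Cancer_High, 23.9, 1.09, 13.7 and 44.9 in Cancer_Low, 649, 661 and 561 in PreC_High, 12.8, 31.5 and 13.3 in PreC_Low and 13.7, 4.05 and 4.87 in Control_Low. The 3 PreC_High libraries were the highest of all and close to each other, while the Cancer_High libraries formed a high and a low pair. PreC_High exceeded PreC_Low by 5.02 ± 1.12 on the log2 scale (32.5-fold, edgeR adjusted p 0.00291), in every leave-one-out fit. Cancer_High exceeded Cancer_Low by 2.71 ± 0.87 (adjusted p 0.028), with Cancer_High 2 and 4 below Cancer_Low 4, the library with high SOX10. Leaving out Cancer_High 1, Cancer_High 3, Cancer_Low 1 or Cancer_Low 3 ended that call, with an adjusted p of up to 0.0871, as did the fit to only the groups compared (0.0866), and without Cancer_Low 4 the difference was 3.41. Between stages, Cancer_High lay below PreC_High in every library, but the difference of -2.19 ± 0.89 had an adjusted p of 0.133 in edgeR and was called by limma voom (0.0216).

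The 2 genes listed as CLDN11 went in opposite directions. CLDN11 (ENSDARG00000030723) had 6.26, 17.8, 14.3 and 7.82 CPM in Cancer_High, 8, 2.42, 3.39 and 4.91 in Cancer_Low, 18.6, 22.8 and 20.9 in PreC_High, 4.15, 4.85 and 6.12 in PreC_Low and 3.64, 7.77 and 12.1 in Control_Low. It was higher in PreC_High than in PreC_Low by 2.04 ± 0.53 (edgeR adjusted p 0.00779) and in Cancer_High than in Cancer_Low by 1.30 ± 0.45 (0.0382). The tumour call ended without any 1 of 5 libraries (Cancer_High 2 or 3, Cancer_Low 2, 3 or 4; adjusted p up to 0.121), with RLE factors (0.052), with only the groups compared (0.0851) and with the tissue as a block (0.0849). CLDN11 (ENSDARG00000020031) had 0.751, 1.1, 0.602 and 0.362 CPM in Cancer_High, against its levels of 4.53 and more in Cancer_Low, and 1.99, 0.590 and 0.778 in PreC_High, against 5.71 and more in PreC_Low. The fractions did not overlap for this gene at either stage.

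CLDN12, a claudin without the usual PDZ-binding end in mammals, varied little. It had 69.7, 106, 69.7 and 65.5 CPM in Cancer_High, 52.0, 84.7, 72.9 and 52.6 in Cancer_Low, 134, 81.0 and 108 in PreC_High, 57.1, 50.5 and 51.3 in PreC_Low and 60.2, 55.7 and 46.6 in Control_Low. All libraries lay within a narrow range beside that of CLDN19. PreC_High exceeded PreC_Low by 1.02 ± 0.28 (edgeR adjusted p 0.0108, or 0.0584 without PreC_High 1). The tumour fractions overlapped (0.24 ± 0.24, adjusted p 0.479).

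**Figure D4:**
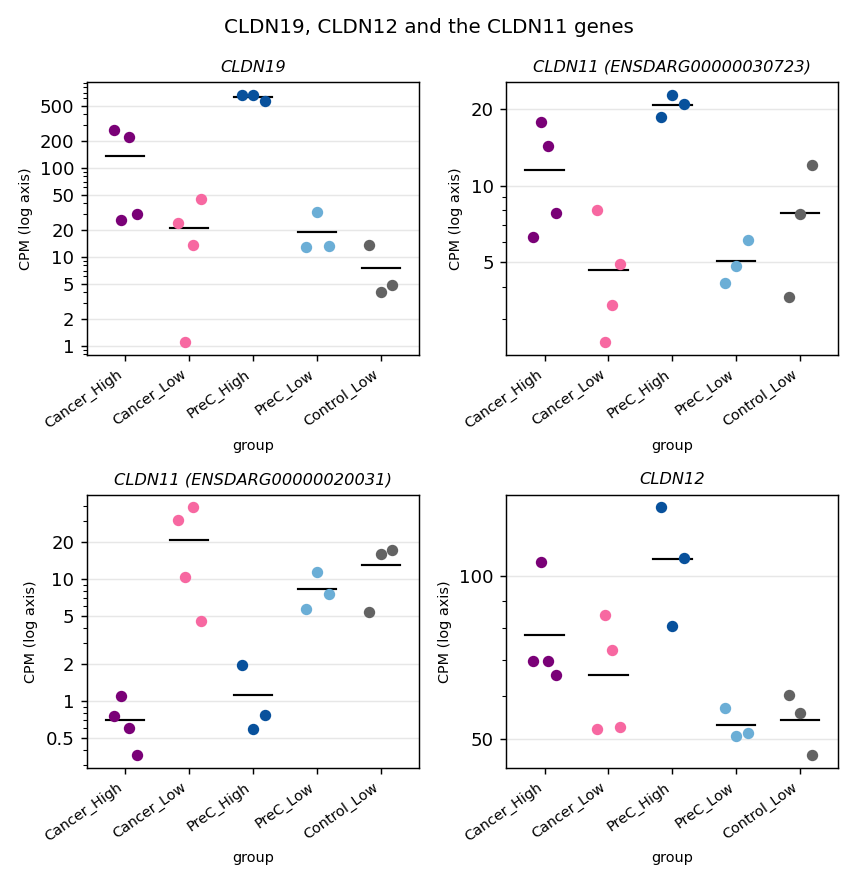
CPM (log axis) of CLDN19, both CLDN11 genes and CLDN12 in each library by group; each point is a library and the line is the group mean. CLDN19 is highest in PreC_High and split in Cancer_High, the CLDN11 genes differ in opposite directions between the fractions, and CLDN12 stays between 46.6 and 134 CPM.

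Myelin genes differed between the groups beside CLDN19. The marker list for myelinating glia and neural crest summed to 1630 to 2710 CPM in Cancer_High, 463 to 965 in Cancer_Low, 6800 to 7590 in PreC_High, 457 to 815 in PreC_Low and 895 to 1130 in Control_Low. Of its 22 genes tested, 2 were higher and 11 were lower in Cancer_High than in PreC_High. Over all genes tested, 4.91% were called higher and 5.24% lower there. The myelin claudin gene cldnk, left out by the rule, had 0.111 to 1.18 CPM in Cancer_High and 271 to 349 CPM in PreC_High, and mbpa, the myelin basic protein gene, averaged 11.7 and 1090 CPM. In the same tumour libraries CLDN19 had 25.6 to 268 CPM. The part of cell composition in the CLDN19 difference was not tested.

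Between the sox10-high groups of both stages, 1 claudin was higher and 6 were lower in Cancer_High than in PreC_High, where 4.91% of all genes were called higher and 5.24% lower. The median over the 32 was -0.94, against 0.21 over all genes. The genes that fell were already low in PreC_High: the log2 fold change was -2.86 ± 0.50 for cldna (edgeR adjusted p 0.00121), -2.65 ± 0.56 for cldnb (0.00525), -2.14 ± 0.37 for cldni (0.00113) and -2.06 ± 0.51 for cldn7b (0.015). For these 4 genes the groups did not overlap. The call of cldn7b ended without PreC_High 3 (adjusted p 0.0615). For cldn1 it was -2.41 ± 0.59 (0.0136), but without PreC_High 1, its highest library at 3.42 CPM, the value was -1.24 with an adjusted p of 0.184. It was -3.14 without Cancer_High 2. CLDN23, with 2 counts in all of Cancer_High and 96 in PreC_High, was 54.4-fold lower when pooled (95% interval 14.7 to 456, counting error only; adjusted p 0.000885). A limma voom fit called 3 members in this comparison (cldnb, CLDN23 and CLDN19, all lower), and 1090 of 23299 genes lower.

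CLDN2 was the 1 claudin called higher in Cancer_High, and it rests on 1 library. It had 1.40, 0.888, 17.2 and 0.573 CPM in Cancer_High and 0.696, 0.168 and 0.445 CPM in PreC_High. The groups overlapped, and 1 tumour library stood far above the rest. The log2 fold change was 3.52 ± 1.07 (edgeR adjusted p 0.0458), and without Cancer_High 3 it was 1.13. Leaving out any 1 of 12 libraries ended the call, with an adjusted p of up to 0.319, and so did RLE factors (0.053) and the replicate number as a block (0.0877).

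The difference between fractions changed with stage for 2 claudins: 1 was called higher and 1 lower in the interaction, High minus Low in Cancer against High minus Low in PreC, where 2.36% of all genes were called higher and 1.04% lower. The median interaction over the 32 was -0.76, against 0.17 over all genes. For CLDN23 the interaction was -5.47 ± 1.17 (edgeR adjusted p 0.0167), in every leave-one-out fit, with -4.84 without Cancer_Low 2. Its size rests on the 2 counts in Cancer_High. For CLDN2 it was 5.87 ± 1.42 (adjusted p 0.0311). CLDN2 was lower in PreC_High than in PreC_Low (-5.0 ± 1.17, adjusted p 0.00411), while Cancer_High and Cancer_Low overlapped (0.87 ± 0.86, adjusted p 0.485, or -1.52 without Cancer_High 3). Without Cancer_High 3 the CLDN2 interaction was 3.48, and leaving out Cancer_Low 1, PreC_Low 1, PreC_Low 2 or any PreC_High library ended the call, with an adjusted p of up to 0.0756. With the tissue as a block neither gene passed (0.07 for CLDN23 and 0.0862 for CLDN2), and cldnb was the 1 member called, lower.

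Channel claudins other than CLDN2 were near the detection limit. The CLDN10, cldn10 and cldn15 genes reached at most 2.84 CPM in any library. CLDN10 (ENSDARG00000104528) had 0 counts in all 3 Control_Low libraries and 20, 17, 15 and 2 counts in Cancer_Low, at least 11-fold higher than a floor of 3 counts per group. This gene was not called in the edgeR fit over all libraries (adjusted p 0.0613). Of 24 alternatives that gave it a value, 6 called it higher, DESeq2 among them. It had 0, 236 and 50 counts in PreC_High and 0, 0 and 36 in PreC_Low, with no call between them (adjusted p 0.251, or 0.0238 without PreC_Low 3). CLDN10 (ENSDARG00000058937) had 0 counts in PreC_High and 12, 0 and 12 in PreC_Low, at least 8.47-fold lower. It was called lower in sox10-high cells at both stages (adjusted p 0.0234 in PreC, 0.0309 in Cancer), with 0, 0, 1 and 0 counts in Cancer_High and 18, 6, 8 and 9 in Cancer_Low. The tumour difference was 35.2-fold (95% interval 5.98 to 1430, counting error only), and both calls ended with the tissue as a block (0.0867 and 0.0708), in PreC also without any of 4 libraries (adjusted p up to 0.062) and in Cancer without any of 5 (up to 0.0794).

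Another 3 members had 0 counts in every PreC_High library. The letter-named cldng had 24, 70 and 20 counts in PreC_Low, so PreC_High was at least 40.3-fold lower (edgeR adjusted p 0.0431), and leaving out any 1 of 8 libraries ended the call, with an adjusted p of up to 0.101. For cldn29 and cldnj the counts in PreC_Low came from PreC_Low 3 alone, with 26 and 12 counts, and neither passed the test (adjusted p 0.076 and 0.0691). Libraries of PreC and Control held fewer IDs with 3 to 20 counts (632 to 2344) than those of Cancer (3361 to 4295). Among counts of 20 to 100, 60.8 to 77.8% were even numbers in PreC and Control libraries and 51.2 to 53.9% in Cancer libraries. A count in PreC or Control libraries therefore need not be 1 independent read, and floors and intervals that use those groups may be too narrow.

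CLDN5 (ENSDARG00000043716) shares its symbol with the claudin of the blood vessel barrier in mice. Which zebrafish paralog it is was not assigned, and the other gene listed as CLDN5 had 0 counts. CLDN5 (ENSDARG00000043716) was low throughout, at 0.00 to 0.512 CPM in Cancer_High, 0.764 to 2.54 in Cancer_Low and 0.00 to 0.420 in PreC_High. It had 0.402 to 1.30 CPM in PreC_Low and 0.00 to 1.92 in Control_Low. The edgeR fit over all libraries called it in none of the comparisons, while limma voom called it lower in PreC_High than in PreC_Low (adjusted p 0.0365) and in Cancer_High than in Cancer_Low (0.0392). Without PreC_High 1 the edgeR fit called the difference in pre-cancerous tissue as well (0.0282). The summed endothelial marker list stood at 57.2 to 124 CPM in Cancer_High, 196 to 336 in Cancer_Low, 49.6 to 52.5 in PreC_High, 343 to 422 in PreC_Low and 282 to 569 in Control_Low.

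Epithelial markers, like claudins, were called lower more often than higher in every comparison but the interaction and PreC_Low against Control_Low. In sox10-low tumour cells the median of the markers lay below that of the 32 claudins. The median log2 fold change of the markers was -2.84 in Cancer_Low against Control_Low and -1.54 against PreC_Low. For the claudins it was -0.92 and 0.02. The claudin median takes in members under about 1 CPM, so the 2 medians may not be like for like. The summed level of the markers did not always follow the claudins. The cell adhesion gene epcam had 4.71, 4.30, 2.63 and 2.05 CPM in Cancer_High, 216, 435, 88.9 and 86.5 in Cancer_Low, 24.3, 33.6 and 15.9 in PreC_High, 484, 382 and 233 in PreC_Low and 1010, 838 and 1060 in Control_Low. This is the group order of cldnb, and within Cancer_Low both genes were highest in replicate 2. Of 38 epithelial markers tested, 7 were higher and 25 were lower in Cancer_Low than in Control_Low, 4 and 31 in PreC_High than in PreC_Low, 3 and 29 in Cancer_High than in Cancer_Low and 2 and 16 in Cancer_High than in PreC_High. In Cancer_Low against PreC_Low it was 5 and 13, in the interaction 1 and 0 and in PreC_Low against Control_Low 1 and 1. The shares of all genes called higher and lower were 17.2 and 15.5% in Cancer_Low against Control_Low and 9.28 and 22% in PreC_High against PreC_Low. They were 10.5 and 17.9% in Cancer_High against Cancer_Low and 4.91 and 5.24% in Cancer_High against PreC_High. In Cancer_Low against PreC_Low they were 7.95 and 11.1%, in the interaction 2.36 and 1.04% and in PreC_Low against Control_Low 0.777 and 0.296%. Without the keratins the list summed to 835 to 1630 CPM in Cancer_High, 1040 to 3140 in Cancer_Low, 771 to 1090 in PreC_High, 2370 to 5840 in PreC_Low and 8410 to 12800 in Control_Low. The ranges of Cancer_High and Cancer_Low overlapped there. With the keratins the order differed, with 10100 to 11600 CPM in Cancer_High, 5730 to 11500 in Cancer_Low and 6200 to 7930 in PreC_High. Cancer_High was then above Cancer_Low in every tumour tissue, the opposite of cldnb. The part of epithelial cell content in the claudin differences was not tested.

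Set against epcam, cldnb and cldna had a fairly steady ratio, and the other claudins printed below varied more. This ratio, claudin counts per epcam count, was chosen after the values were seen and is given as a description with no test. No other epithelial gene was used as the divisor, and not all had the group order of cldnb. The mean of cdh1 was 32.0 CPM in Cancer_High and 22.1 in PreC_High, and that of krt4 388 in Cancer_High and 242 in Cancer_Low. The group means of krt5, ESRP1 and grhl3 had the order of cldnb but fell further. From Control_Low to Cancer_Low the mean of cldnb went from 1120 to 282 CPM. That of krt5 went from 32500 to 2010, that of ESRP1 from 558 to 28.7 and that of grhl3 from 81 to 9.83. The steady ratio is thus shown for epcam only. For cldnb the ratio to epcam was 1.08 to 1.68 in Cancer_High, 1 to 1.55 in Cancer_Low and 1.23 to 1.44 in PreC_High. It was 1.31 to 1.53 in PreC_Low and 1.1 to 1.24 in Control_Low, although cldnb itself ranged from 2.21 to 1250 CPM. For cldna it was 0.454 to 0.682 in Cancer_High, 0.442 to 0.510 in Cancer_Low, 0.463 to 0.643 in PreC_High, 0.423 to 0.643 in PreC_Low and 0.422 to 0.673 in Control_Low. The ranges of cldna overlapped between every pair of groups, and those of cldnb between every pair except PreC_Low and Control_Low.

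The ratio of other claudins to epcam varied more, between groups or within a group. For cldn7b the ratio was 0.697 to 0.905 in Cancer_High, 0.616 to 0.891 in Cancer_Low, 0.337 to 0.943 in PreC_High, 0.409 to 0.485 in PreC_Low and 0.288 to 0.345 in Control_Low. For cldn3c it was 0.162 to 0.255 in Cancer_High, 0.0803 to 0.250 in Cancer_Low, 0.00 to 0.0560 in PreC_High, 0.0341 to 0.0817 in PreC_Low and 0.00907 to 0.0184 in Control_Low. The Control_Low libraries were below both other sox10-low groups for these 2 genes. For cldne it was 0.101 to 0.565 in Cancer_High, 0.109 to 0.340 in Cancer_Low, 0.0581 to 0.343 in PreC_High, 0.0696 to 0.0795 in PreC_Low and 0.0648 to 0.0859 in Control_Low. For cldni it was 0.56 to 1.19 in Cancer_High, 0.415 to 1.2 in Cancer_Low, 0.281 to 0.637 in PreC_High, 0.626 to 0.767 in PreC_Low and 0.638 to 1.15 in Control_Low. The ratio of cldn1 was 0.0155 to 0.0978 in Cancer_Low, 0.0645 to 0.0890 in PreC_Low and 0.0609 to 0.104 in Control_Low, lowest in Cancer_Low 1 and 2, where epcam was highest of that group. In sox10-high cells the cldn1 ratio was 0.0442 to 0.155 in Cancer_High and 0.0211 to 0.141 in PreC_High.

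**Figure D5:**
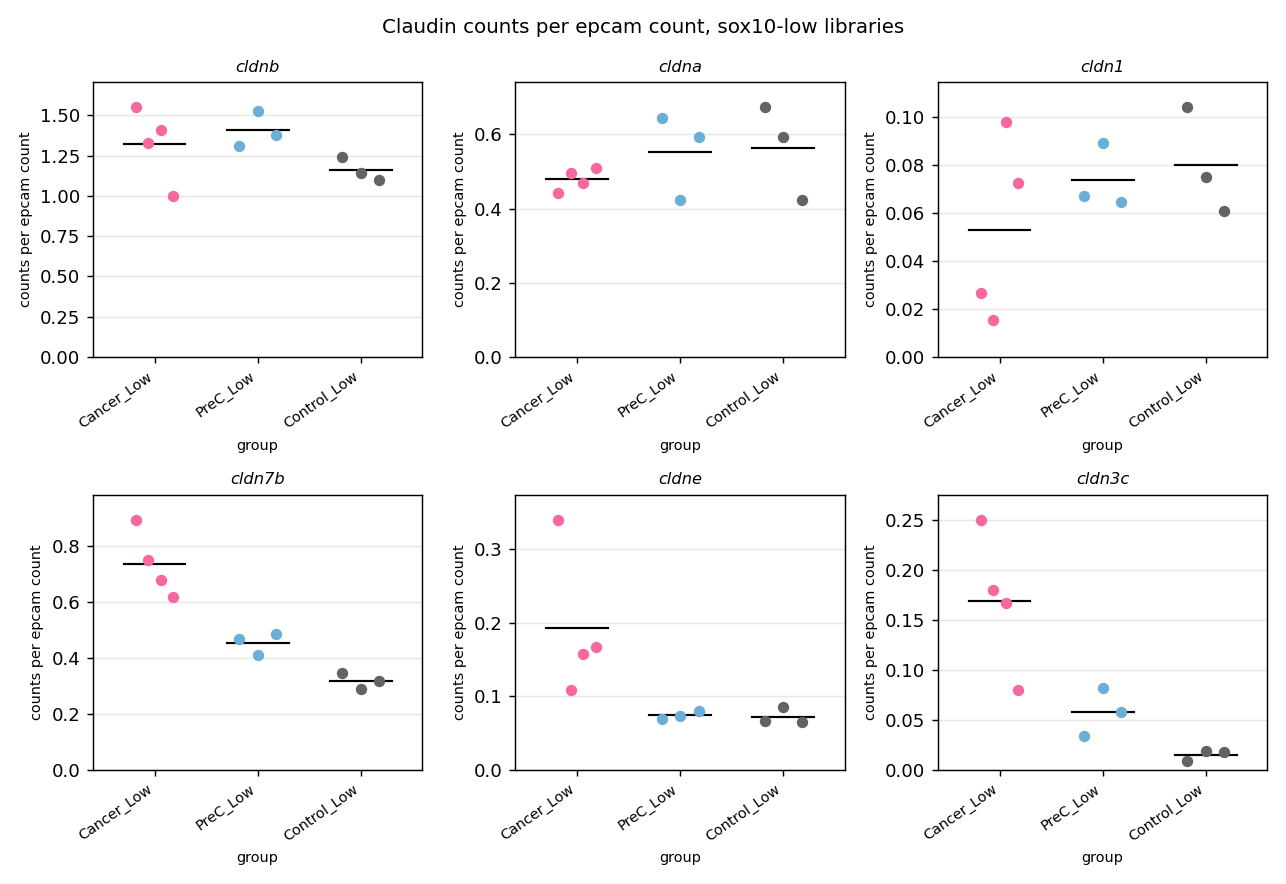
Claudin counts per epcam count (axes from 0) in each sox10-low library by group; each point is a library and the line is the group mean. The groups overlap for cldna and cldn1, Control_Low lies lowest for cldn7b and cldn3c, and Cancer_Low lies highest for cldn7b and cldne.

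Other tight junction genes were called in both directions, more of them lower than higher in every comparison with calls except the interaction. Of 50 tight junction and polarity genes tested, 1 was higher and 23 were lower in Cancer_Low than in Control_Low, 4 and 23 in PreC_High than in PreC_Low and 6 and 17 in Cancer_High than in Cancer_Low. In Cancer_Low against PreC_Low it was 1 and 10, in Cancer_High against PreC_High 1 and 7, in the interaction 2 and 1, and in PreC_Low against Control_Low 0 and 0. Over all genes, the shares called higher and lower were 17.2 and 15.5% in Cancer_Low against Control_Low, 9.28 and 22% in PreC_High against PreC_Low and 10.5 and 17.9% in Cancer_High against Cancer_Low. They were 7.95 and 11.1% in Cancer_Low against PreC_Low and 4.91 and 5.24% in Cancer_High against PreC_High. For the interaction they were 2.36 and 1.04%, and for PreC_Low against Control_Low 0.777 and 0.296%. The summed level of the list did not follow the counts of calls. It was 1640, 1130, 1530 and 1890 CPM in Cancer_High, 982, 926, 664 and 1390 in Cancer_Low, 1190, 1250 and 1260 in PreC_High, 1660, 1490 and 953 in PreC_Low and 2350, 1980 and 2080 in Control_Low. Cancer_High was above Cancer_Low in all 4 tissues, PreC_High lay within the range of PreC_Low, and Control_Low was highest. Occludin, the other main strand protein, has 2 genes. One of them, oclna, averaged 0.576 ± 0.201 CPM in Cancer_High and 33.3 ± 29.2 in Cancer_Low (SD, n = 4 each), a log2 fold change of -5.85 ± 0.58 (edgeR adjusted p 3.4e-06), or -5.08 without Cancer_Low 2. It was also lower in Cancer_High than in PreC_High (-4.30 ± 0.56, 8.15e-05), where PreC_High averaged 11.4 ± 3.13 CPM (SD, n = 3). The scaffold gene tjp3, a ZO protein that claudin tails bind, fell in Cancer_High against Cancer_Low (-4.75 ± 0.52, adjusted p 6.98e-06, or -4.06 without Cancer_Low 2) and in PreC_High against PreC_Low (-4.2 ± 0.58, 7.68e-05). The junctional adhesion molecule gene f11r.1 fell in the same comparisons (-3.62 ± 0.39, adjusted p 5.62e-06, and -3.39 ± 0.44, 4.56e-05). The cingulin gene cgnb, which codes for a plaque protein, was higher in Cancer_High than in PreC_High (2.25 ± 0.5, edgeR adjusted p 0.0075), which limma voom did not call. It averaged 13.4 ± 7.06 CPM in Cancer_High and 8.69 ± 4.09 in Cancer_Low (SD, n = 4 each), but 2.81 ± 0.25 in PreC_High and 31 ± 9.73 in PreC_Low (SD, n = 3 each), with an interaction of 4.08 ± 0.68 (adjusted p 0.00413).

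The 1 partner that rose in sox10-low tumour cells was MARVELD1, a relative of occludin. It averaged 100 ± 60.9 CPM in Cancer_Low (SD, n = 4), against 9.87 ± 5.87 in PreC_Low and 4.61 ± 2.11 in Control_Low (SD, n = 3 each). The log2 fold change was 4.44 ± 0.54 against Control_Low (edgeR adjusted p 1.66e-05) and 3.34 ± 0.51 against PreC_Low (0.000221, or 3.95 without PreC_Low 1). High levels of MARVELD1 were not particular to that fraction. It averaged 154 ± 40.2 CPM in Cancer_High (SD, n = 4) and 67.8 ± 13.3 in PreC_High (SD, n = 3). PreC_High exceeded PreC_Low by 2.78 ± 0.51 (edgeR adjusted p 0.000648), and by 3.38 without PreC_Low 1. CRB1, a polarity gene that photoreceptors and Müller glia use, averaged 1.37 ± 0.756 CPM in Cancer_Low (SD, n = 4) and 42.4 ± 16.3 in Control_Low (SD, n = 3), a log2 fold change of -4.95 ± 0.55 (adjusted p 8.52e-06). The photoreceptor and Müller glia list fell beside CRB1, at 911 to 1770 CPM in Cancer_Low and 28500 to 52700 CPM in Control_Low. The leukocyte list was 3760 to 13500 CPM in Cancer_Low and 1420 to 1940 CPM in Control_Low. For these lists, the part in the claudin and partner differences was not tested.

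Over the 17 libraries the claudins most like cldnb were cldna and cldn7b (Pearson r 0.99 each on log2(CPM + 1)), cldni (0.98) and cldne (0.96). The libraries share their groups and their scaling, so these values describe the group pattern. After each group's mean was taken out, r was 0.88 for cldna, 0.88 for cldn7b, 0.72 for cldne and 0.54 for cldni. CLDN19 had an r of -0.66 with cldnb.

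Several members lie side by side in the genome (order in RefSeq GRCz12tu, used for neighbourhood only). One run holds cldnj, cldne, cldnf and cldna, 4 genes that are all members. Of these, cldne and cldna fell in sox10-high cells at both stages, while cldnf and cldnj were not called in the edgeR fit over all libraries. With the tissue as a block, cldnf was called lower in Cancer_High than in Cancer_Low. A second run of 7 claudin genes holds 5 members in the order cldn3c, cldn3d, cldnb, cldn29 and cldn30, with cldnd and cldn28, which are not members, between the last 2. Here cldn3c, cldnb and cldn30 fell in sox10-high cells at both stages. The genes cldn3d and cldn29, each under 2 CPM in every library, were not called in the edgeR fit over all libraries. For cldn29, limma voom and the fit to only the 2 tumour groups called Cancer_High lower than Cancer_Low. How the authors counted reads shared between close paralogs is not given in the sources used here, so values of neighbouring copies are uncertain where their sequences are alike.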

How the data were processed

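The authors deposited 1 table of raw counts per gene (whole numbers) for 17 libraries, prepared with a strand-specific kit and read from both fragment ends per the labels. Per the submitters' processing notes, STAR, HTSeq, FastQC and DESeq2 were used with build danRer10. For their versions, the annotation, the strand setting and the treatment of shared reads, the sources used here give no details. No coordinates or sequences are printed. Part of the mutant genotype is not reported here. Of 31701 IDs, 26237 were matched to a symbol. The age of Control_Low 3 is typed with a letter O and was read as 5.0 months.

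TMM factors, the filterByExpr filter (minimum count 10) and a 5-group quasi-likelihood fit over the 17 libraries were run in edgeR 4.0.16 under R 4.3.3, with limma 3.58.1 for voom. p-values were Benjamini-Hochberg adjusted over 23299 genes and called under 0.05. CPM are counts per 1000000 of TMM-scaled library size. Standard errors of log2 fold changes were derived from the F-test, as the absolute log2 fold change over the square root of F. They are not a separate estimate of the spread. The script was tested on simulated data. Groups at 0 counts were given bounds from a floor of 3 counts per group, and intervals for groups of 1 to 3 counts are exact binomial. Intervals and floors cover counting error only.

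High and Low libraries of a stage are tied by the tissue code in the labels. Deviations from group means correlated at 0.306 to 0.426 within Cancer tissues and at -0.009 to 0.075 within PreC tissues. The fit without the tissue as a block is the one reported.

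Members and lists were chosen with earlier results of these data known. Named claudins were, per comparison, up to 10 called by adjusted p, with the 3 of highest mean per group, those called in the interaction and those at 0 counts in a group, and of the tight junction list up to 5 per comparison. Other members and epcam were named after their values were seen. Retinal pigment epithelium, lens and erythrocyte lists were also computed. Their summed levels were 89.5 to 194, 8.32 to 18.7 and 4.83 to 13.0 CPM in Cancer_High and 86.4 to 115, 5.16 to 13.4 and 10.6 to 39.5 CPM in Control_Low. Alternatives were RLE factors, other filters, DESeq2 1.42.0, limma voom with a correlation within tissues, only the groups compared, the block (for stages and controls, the replicate number), PreC_Low 3 and Cancer_Low 4 both left out, and each library left out.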

Additional observations from a re-analysis of the deposited data

Results flagged for a closer look

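Dixon's limit, for the gap of a library to the next, is passed by about 1 in 20 groups of normally distributed values. Values near 0 counts are not of that kind, so the rate does not apply to them. Of 64 groups of 4 libraries, 8 had a library beyond this limit. These were cldni in Cancer_Low 2 (209 CPM), CLDN12 in Cancer_High 2 (106 CPM), CLDN2 in Cancer_High 3 (17.2 CPM), cldn33b in Cancer_High 4 (1.05 CPM), CLDN10 (ENSDARG00000104528) in Cancer_High 3 (0.0735 CPM), cldng in Cancer_High 2 (0.125 CPM) and CLDN10 (ENSDARG00000058937) in Cancer_High 3 (0.0147 CPM) and Cancer_Low 1 (0.225 CPM). The last 4 are values of a few counts.

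The interaction term was called for 2 claudins in the edgeR fit without the tissue as a block. With the tissue as a block neither was called (edgeR adjusted p 0.0862 for CLDN2 and 0.07 for CLDN23). For CLDN2 the log2 interaction was 5.87, and the same library, Cancer_High 3, is its highest tumour value. For CLDN23 it was -5.47, with 2 counts in all of Cancer_High.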

How the results depend on the processing

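None of the claudin differences called in edgeR changed direction under the alternatives run. Among the differences printed in the text that were not called, CLDN2 in Cancer_High against Cancer_Low (0.87) turned to -0.39 with limma voom, -0.42 with the replicate block and -1.52 without Cancer_High 3 (-1.52 to 1.27 with 1 library left out). CLDN5 turned to 1.21 with limma voom and 0.19 without Control_Low 3 in PreC_Low against Control_Low (-0.48, and -1.06 to 0.19 with 1 library left out), and to -0.25 with the replicate block and -0.09 without Control_Low 1 in Cancer_Low against Control_Low (0.49, and -0.09 to 1.14 with 1 library left out). Its interaction (-0.09) turned to 1.16 with limma voom, 1.28 with the replicate block and ran from -0.67 to 6.31 with 1 library left out, the highest where PreC_High has 0 counts left. For cldn29 and cldnj, leaving out PreC_Low 3 left no counts in either fraction before tumours, so no value was given. In PreC_Low against Control_Low, where 0 were called, DESeq2 called 1, limma voom 3, the fit to only the groups compared 4 and the replicate block 1, all lower, and leaving out 1 library gave 0 to 1. Of 23299 genes, DESeq2 called 557 lower, limma voom 495 and the replicate block 135, against 69 in the main fit. The fit to only the groups compared called 414 of 21081 genes lower, and leaving out 1 library gave 16 to 126. In Cancer_Low against PreC_Low, where 2 were called, RLE factors gave 1, DESeq2 3, limma voom 5 and the replicate block 0 (0 to 3 with 1 library left out). Over all genes, RLE factors called 2127 higher and 2510 lower there, and DESeq2 3172 and 3209. With limma voom it was 2304 and 3256, and with the replicate block 1957 and 2717. Leaving out 1 library gave 1012 to 2502 higher and 1839 to 2679 lower. In Cancer_High against PreC_High, where 7 were called, limma voom gave 3 (5 to 8 with 1 library left out). Over all genes limma voom called 1043 higher and 1090 lower there. Leaving out 1 library gave 611 to 1404 higher and 1006 to 1360 lower. In the interaction, where 2 were called, limma voom, the fit to only the groups compared and the replicate block gave 1 each and DESeq2 3, with 1 to 3 when 1 library was left out. Over all genes limma voom called 860 higher and 444 lower there, and DESeq2 1263 and 832. The fit to only the groups compared gave 258 and 217, and the replicate block 206 and 209. Leaving out 1 library gave 265 to 791 higher and 131 to 427 lower. Leaving out 1 library gave 4 to 7 calls in Cancer_Low against Control_Low (6), 14 to 18 in PreC_High against PreC_Low (17) and 13 to 15 in Cancer_High against Cancer_Low (15). Over all genes it gave 2632 to 4431 higher and 2921 to 3717 lower in the first of these. In the second it gave 1332 to 3023 and 4183 to 5265, and in the third 1284 to 3548 and 3397 to 4543. With the replicate block, where the labels pair only High with Low, these 3 comparisons gave 4, 16 and 15. Over all genes the block called 3881 higher and 3800 lower, 3601 and 4644, and 2706 and 3978, in the same order. It changed no call of High against Low other than those given beside the result and cldnf and cldn23l, which became called lower in Cancer_High. In Cancer_Low against Control_Low it ended the calls of CLDN23 (adjusted p 0.104) and cldn7a (0.102), and in Cancer_Low against PreC_Low those of cldn1 (0.0556) and cldni (0.0659). Leaving out both PreC_Low 3 and Cancer_Low 4 gave 5 for Cancer_Low against Control_Low and 18 for PreC_High against PreC_Low. Over all genes that gave 4083 higher and 3760 lower in the first, and 3605 and 5101 in the second. RLE in place of TMM factors moved the median of all genes by up to 0.13 on the log2 scale. Tight junction and polarity genes were run under the same alternatives after the data were seen: calls ranged from 20 to 33 in Cancer_Low against Control_Low, 7 to 18 in Cancer_Low against PreC_Low, 22 to 33 in PreC_High against PreC_Low, 18 to 32 in Cancer_High against Cancer_Low, 3 to 13 in Cancer_High against PreC_High, 2 to 6 in the interaction and 0 to 2 in PreC_Low against Control_Low. Calls over all genes moved under these alternatives as well. The cause of these changes was not tested. Members under about 1 CPM rest on few counts, and a difference there was often not detectable at this depth.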
